A study of Homo sapiens with 36 samples.

Results

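The genes described here were 36 genes of cholesterol and fatty acid metabolism, out of 60656 genes with a value in 36 RNA-Seq libraries. They were listed by role, with earlier results of these data known. The 20 sterol genes (HMGCS1, ACAT2, MVK, PMVK, MVD, IDI1, FDPS, FDFT1, GGPS1, SQLE, LSS, CYP51A1, TM7SF2, MSMO1, NSDHL, HSD17B7, EBP, SC5D, DHCR7 and STARD4) are genes of the kind that SREBP2 activates. The 8 lipid genes (FASN, ACACA, ACLY, SCD, FADS1, FADS2, ELOVL6 and LPIN1) are of the kind that SREBP1 activates, the 3 efflux genes (ABCA1, ABCG1 and MYLIP) are targets of the liver X receptors (LXR), and the 5 regulators were SREBF1, SREBF2, SCAP, INSIG1 and INSIG2.

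The libraries came from human melanoma lines with mutant BRAF (V600E): 1205LuTR-NR2F1 (1205Lu from here on), WM793TR-NR2F1 (WM793) and A375TR-NR2F1 (A375). In all 3, the Tet repressor keeps a cDNA of the nuclear receptor NR2F1 silent until doxycycline (DOX) is added. There were 4 treatments with 3 replicates each per line: DMSO, DMSO + DOX, BRAFi + MEKi and BRAFi + MEKi + DOX. BRAFi was PLX4720 at 1 uM, MEKi was PD0325901 at 35 nM, DOX was used at 100 ng/mL, the treatment lasted 72 hours, and DMSO is the solvent of the inhibitors. DOX also preceded the inhibitors by 24 hours in the described procedure. Because every line carried the cDNA, an effect of DOX itself and an effect of NR2F1 cannot be told apart. The medium held 2% serum for 1205Lu and WM793 and 10% serum for A375. The base medium differed too, and added insulin was described for 1205Lu and WM793 but not for A375. Line and medium therefore cannot be told apart either. The study states that replicates of its cell culture work came from separate experiments, which the labels of these libraries do not mark, and the p-values measure the spread between these libraries. In these bulk samples, fewer cells of a type and less RNA per cell cannot be told apart.

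Cells make cholesterol from acetyl-CoA through mevalonate, squalene and lanosterol, and they make fatty acids from the same acetyl-CoA. The transcription factors SREBP1 and SREBP2 switch on the genes of these pathways when sterols run low: SCAP carries them out of the endoplasmic reticulum for activation, whereas the INSIG proteins hold them back. LXR, which responds to oxidized sterols, works on the other side of the balance by switching on cholesterol exporters. In melanoma cells with mutant BRAF, the inhibitors block the MEK and ERK kinases that drive growth.

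The stretch just before the start of a gene is where SREBPs and the factor NF-Y, which binds the box CCAAT, act together at many sterol genes. The 250 bases before the start were read from RefSeq (GRCh38.p14) for 31 of the 36 genes, whereas ABCG1, ACAT2, FASN, FDFT1 and SQLE had no entry. Several entries existed for 10 of the genes, and 1 start was used for each. That start can differ from the start in the GENCODE annotation: the HMGCS1 window lies partly, and the DHCR7 window wholly, inside the GENCODE span of its gene. CCAAT, read on either strand (ATTGG on the other), was found in 13 of 17 sterol gene promoters (76.5%) and in 2 of 7 lipid gene promoters (28.6%), against 33.0% of all 27305 promoters of the same length. The sterol element TCACNCCAC was found on either strand in SREBF2 alone among the 31, against 0.875% of all promoters. The E-box CACGTG was found in 4 of 31 (12.9%) against 6.49% of all. The DR4 motif of LXR (AGGTCA repeated after 4 bases) and the DR1 motif (AGGTCA repeated after 1 base) were found in none of the 31 and in 4 and 5 of all promoters, respectively. These 5 searches ran on both strands and a base could count for more than 1 motif. A match is a run of letters, and no match says only that these letters are not in this window. In the GRCh38 annotation of GENCODE, the genes of the windows that lead the results span chr5:43287470-43313512 (HMGCS1), chr10:100347233-100364826 (SCD) and chr22:41833105-41907306 (SREBF2), FASN spans chr17:82078338-82098294 and ABCA1 spans chr9:104781006-104928155; all 5 are protein-coding. The windows below come from genes whose values the results turn on and are printed 5′ to 3′ on the strand of the gene, with CCAAT and ATTGG, and TCACCCCAC in SREBF2, in capitals.
HMGCS1, chr5:43313498-43313577, minus strand: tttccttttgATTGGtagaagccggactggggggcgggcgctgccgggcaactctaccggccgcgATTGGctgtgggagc
DHCR7, chr11:71448427-71448497, minus strand: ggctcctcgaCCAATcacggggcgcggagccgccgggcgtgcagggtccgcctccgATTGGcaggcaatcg
STARD4, chr5:111512651-111512706, minus strand: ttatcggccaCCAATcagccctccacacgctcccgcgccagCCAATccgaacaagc
SCD, chr10:100346994-100347061, plus strand: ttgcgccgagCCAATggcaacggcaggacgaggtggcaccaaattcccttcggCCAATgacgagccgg
INSIG1, chr7:155297698-155297722, plus strand: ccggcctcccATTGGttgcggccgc
SREBF2, chr22:41832962-41833013, plus strand: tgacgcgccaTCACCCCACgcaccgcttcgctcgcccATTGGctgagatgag
MYLIP, chr6:16128967-16129032, plus strand: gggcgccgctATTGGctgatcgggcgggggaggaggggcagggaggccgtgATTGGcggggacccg

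The values are the deposited DESeq2-normalized gene values, which summed to between 27027824 and 34621958 per library. The reads behind them were estimated at 6.58 M to 60.5 M with a median of 29.7 M. WM793 DMSO replicate 1 had the lowest estimate, with the next lowest at 23.1 M, and the fewest genes above 0 (16636). It is a control of the WM793 comparisons with DMSO. NR2F1 rose with DOX under BRAFi + MEKi by 3.33, 4.99 and 4.14 log2 units in 1205Lu, WM793 and A375, and under DMSO it passed the test in WM793 (6.39) and A375 (5.49) but not in 1205Lu (1.93). Genes switched on by ERK signaling (DUSP6, SPRY2, SPRY4, ETV4, ETV5 and FOSL1) fell with the inhibitors in 6, 5 and 6 of 6 cases. Of 7 genes of the melanocyte lineage (MITF, SOX10, PMEL, MLANA, TYR, DCT and S100B), MLANA and TYR, which mark pigmented cells, were under 10 in every library. The 7 summed to 17058 to 24131, 22173 to 28476 and 17161 to 19559 with DMSO and to 52195 to 60030, 43923 to 53037 and 27722 to 44247 with BRAFi + MEKi in 1205Lu, WM793 and A375, and their part in the results was not tested. By the median difference per gene, replicate 1 was the furthest from the others in 3 of 4 groups of 1205Lu and in 4 of 4 of WM793, and replicate 3 in 3 of 4 groups of A375; these are the replicate numbers said below to stand apart. In 1205Lu BRAFi + MEKi + DOX, replicate 1 differed from replicates 2 and 3 by a median of 0.287 and 0.273 log2 units per gene, while these differed from each other by 0.106, so where a result of 1205Lu with DOX moved by over 1.5 times or changed its call without this library, the value without it is given too.

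In DMSO, the sterol genes were expressed at far higher levels in 1205Lu and WM793 than in A375, whereas most lipid genes were closer together. The median ratio of levels over the 20 sterol genes was 2.52 for 1205Lu against A375, 3.01 for WM793 against A375 and 0.983 for 1205Lu against WM793. Over the 8 lipid genes the same ratios were 0.889, 1.38 and 0.673. Per kilobase of exon, SCD had the highest level of the 36 genes in each line, at 11483, 8989 and 3376 in 1205Lu, WM793 and A375. ABCG1 had the lowest, at 1.36, 0 and 23.0. FDPS was next below SCD in 1205Lu (4907) and WM793 (5844), and ACLY was next in A375 (2739).

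HMGCS1, the synthase that makes HMG-CoA for the mevalonate pathway, had normalized values of 19485, 11704 and 16418 in the 1205Lu DMSO libraries, 21731, 13276 and 10736 in WM793 and 1174, 1128 and 1092 in A375. The A375 libraries lay below every library of the other lines, and 1205Lu and WM793 overlapped. The difference to A375 was 3.78 ± 0.25 (SE) log2 units for 1205Lu (limma with Benjamini-Hochberg adjustment, adjusted p = 6.5e-14) and 3.69 ± 0.25 for WM793 (adjusted p = 1.4e-13). MSMO1, which removes methyl groups from sterol intermediates, was 3.36 and 3.18 log2 units above A375, DHCR7, which makes cholesterol from its immediate precursor, 2.56 and 1.73, SQLE, which oxidizes squalene, 2.505 and 2.41, and ACAT2, the thiolase at the pathway's entry, 2.49 and 2.38. In all, 16 of 20 sterol genes were higher in 1205Lu than in A375 and none lower, with a median of 1.32, and 19 were higher in WM793, with a median of 1.58. The background was 46.8% of genes called in the first comparison and 47.5% in the second, with medians over all genes of -0.12 and -0.18.

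The lipid genes did not follow the same order of lines, although the mean level of 7 of 8 was higher in WM793 than in A375 (median ratio 1.38). FASN (40345 against 14890), SCD (47145 against 17708) and LPIN1 (4418 against 1530) were the furthest above A375, and FADS1 was below it. The log2 differences of the 8 ran from -0.35 to 1.52. Against A375, SCD (1.77) and LPIN1 (1.41) were higher in 1205Lu and ACACA (-0.49), FADS1 (-0.38), FADS2 (-0.94) and ELOVL6 (-1.03) were lower. Against WM793, where 30.7% of genes were called, 11 of the 36 genes differed in 1205Lu. Among these were 5 lipid genes, all lower in 1205Lu: FASN (-0.88), ACACA (-0.74), ACLY (-0.40), FADS2 (-1.14) and ELOVL6 (-1.48). Of the 20 sterol genes, DHCR7 was higher (0.83) and PMVK (-0.32) and TM7SF2 (-1.39) were lower, although PMVK lost its call in 20 of 24 fits that left out 1 library and in 4 of 7 other settings (highest adjusted p = 0.219 with 1 library left out). FASN lost its call in 5 of those fits (highest adjusted p = 0.13), ACLY lost it without DMSO replicate 2 of 1205Lu (adjusted p = 0.0622), and against A375 ELOVL6 lost it without DMSO replicate 1 or 2 of 1205Lu or 1 or 3 of A375 (highest adjusted p = 0.13) and with array weights or without the replicate numbers that stood apart. The efflux genes were lower in 1205Lu than in A375, with differences of -3.90 for ABCG1, a cholesterol exporter, -1.32 for MYLIP and -0.99 for ABCA1, and ABCG1 was listed at 0 in all 12 WM793 libraries. INSIG1, which retains SREBPs, was 2.88 log2 units higher in 1205Lu and 3.17 higher in WM793 than in A375.

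**Figure D1:**
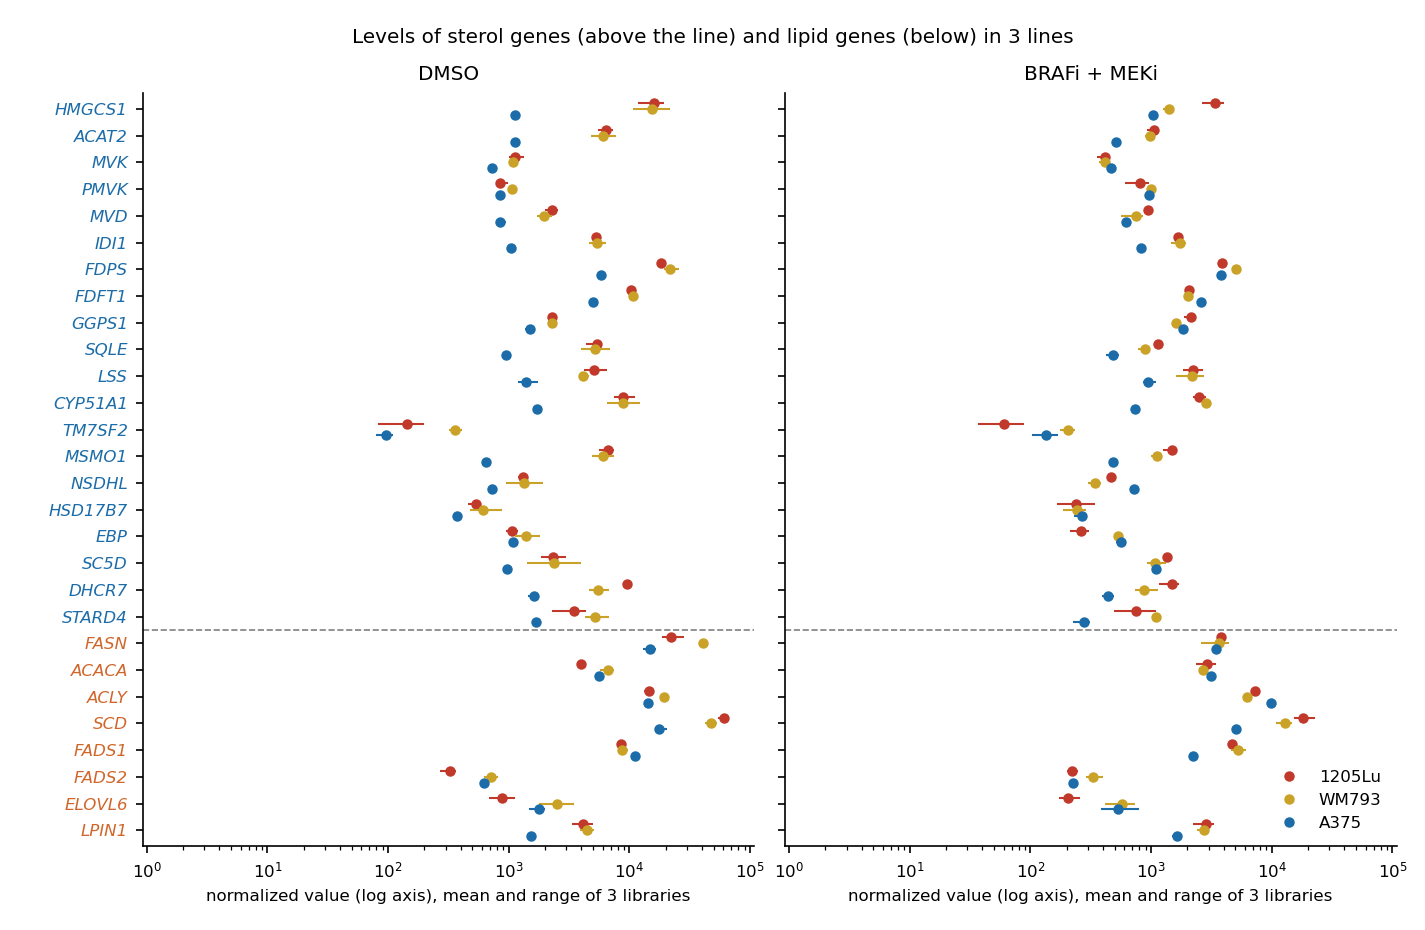
Normalized values (log axis) of the sterol and lipid genes in the 3 lines in DMSO and in BRAFi + MEKi, with points at the mean of 3 libraries and bars from the lowest to the highest. Most sterol genes of A375 lie below those of 1205Lu and WM793 in DMSO, and the median ratio to A375 is nearer 1 under the inhibitors, at 1.37 for 1205Lu and 1.34 for WM793.

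With BRAFi + MEKi, most of these genes fell in every line. In 1205Lu 25 of the 36 genes were lower and 3 higher, in WM793 30 were lower and none higher of 35 tested, and in A375 22 were lower and 2 higher. The background was 30.9%, 37.3% and 39.5% of all genes called in either direction, of which 14.4%, 16.9% and 19.0% were lower and 16.5%, 20.4% and 20.5% higher. Treated and control libraries did not overlap for 43.4%, 45.4% and 52.3% of all genes, so a lack of overlap was common. A set of 19 genes was lower in all 3 lines: ACAT2, MVK, FDPS, FDFT1, SQLE, LSS, CYP51A1, HSD17B7, EBP, DHCR7, STARD4, FASN, ACLY, SCD, FADS1, ELOVL6, SREBF1, SREBF2 and INSIG1. HMGCS1, MVD, IDI1, MSMO1, NSDHL, SC5D, ACACA and FADS2 were lower in 2 lines. No share of all genes is given for calls repeated across lines, so the sizes of these sets are not read as a result. Among all 36, only PMVK, which phosphorylates phosphomevalonate, and INSIG2 passed the test in none of the 3 lines. The genes of cell division (MKI67, TOP2A, CCNB1, MCM2, BUB1 and PLK1) also fell in 6 of 6 cases in 1205Lu and A375 and in 3 of 6 in WM793; their part in the values below was not tested.

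**Figure D2:**
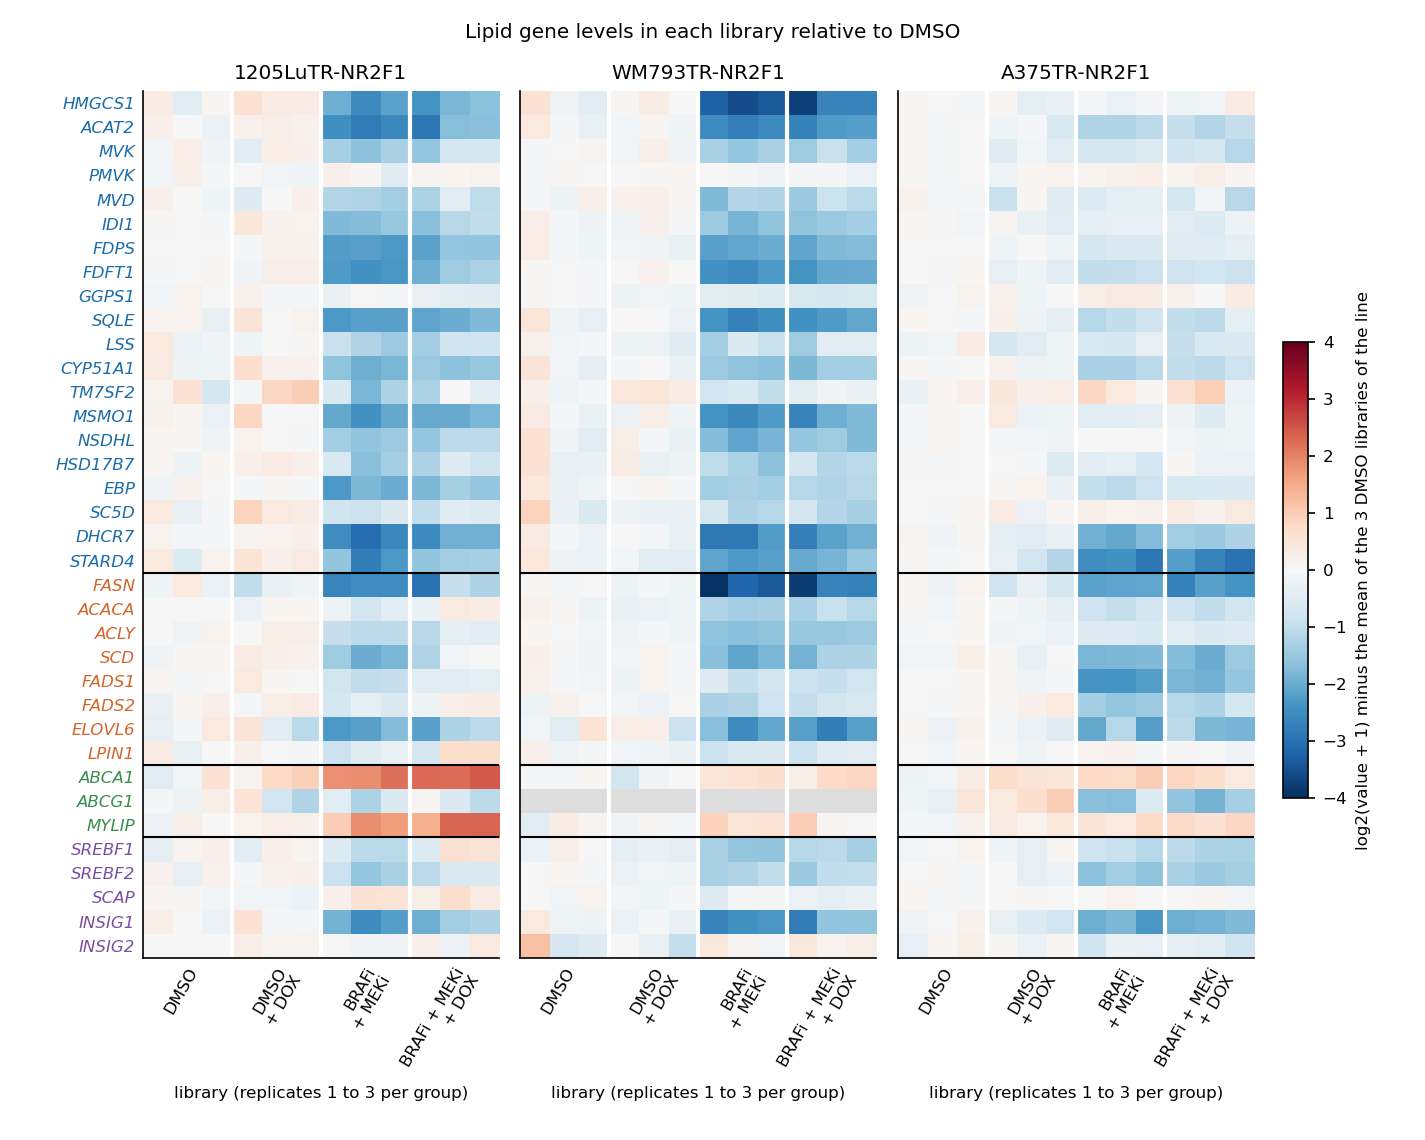
Log2(value + 1) of each of the 36 genes in each of the 36 libraries, minus the mean of the 3 DMSO libraries of the same line, on a color scale from -4 to 4; ABCG1 is grey in WM793, where it was listed at 0. Columns with BRAFi + MEKi are blue for most sterol and lipid genes in 1205Lu and WM793, and paler for sterol genes than for lipid genes in A375.

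Among the sterol genes, 17, 19 and 11 of 20 were lower in 1205Lu, WM793 and A375, and none was higher in any line. The median log2 fold change of the 20 was -1.73, -1.62 and -0.51, beside medians over all genes tested of 0.11, 0.15 and 0.06. As a share of the DMSO level, the median sterol gene kept 29.97% in 1205Lu, 32.03% in WM793 and 69.9% in A375. Of the early steps that build the isoprene units, HMGCS1, ACAT2, MVK, MVD and IDI1 fell in 1205Lu and WM793, while PMVK was at -0.08 in both and did not pass the test. HMGCS1 had 4051, 2642 and 3502 in the 1205Lu BRAFi + MEKi libraries, 1529, 1257 and 1415 in WM793 and 1083, 968 and 1065 in A375. Its treated libraries lay far below the DMSO libraries in 1205Lu and WM793, and in A375 all 3 treated libraries lay just under the DMSO range. The changes were -2.21 ± 0.23 (adjusted p = 1.35e-05) and -3.38 ± 0.27 log2 units (adjusted p = 6.78e-07) in 1205Lu and WM793, and A375 was at -0.12 ± 0.14 (adjusted p = 0.526). ACAT2 went from 7299, 6441 and 5447 to 1167, 919 and 1058 in 1205Lu (-2.60 ± 0.25, adjusted p = 8.22e-06), from 7683, 5535 and 4803 to 1039, 890 and 1011 in WM793 (-2.59 ± 0.17, adjusted p = 1.72e-07) and from 1184, 1097 and 1109 to 486, 486 and 550 in A375 (-1.15 ± 0.15, adjusted p = 2.87e-05). The groups did not overlap in any line. Exons of ACAT2 overlap those of TCP1 and SOD2 and the kit does not mark strand, so its reads may include theirs.

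The kinases and the decarboxylase that follow differed among themselves. MVK, mevalonate kinase, fell by 1.43, 1.38 and 0.64 log2 units in 1205Lu, WM793 and A375, although its exons overlap MMAB. MVD, the mevalonate diphosphate decarboxylase, fell by 1.25 in 1205Lu and 1.39 in WM793, and was at -0.44 in A375 (adjusted p = 0.18). IDI1, which isomerizes isopentenyl diphosphate, fell by 1.67 and 1.64 in the same lines and was at -0.35 in A375 (adjusted p = 0.0725). PMVK, between these enzymes, stayed within -0.08 and 0.18 in the 3 lines: its values were 782, 976 and 794 in 1205Lu DMSO and 969, 868 and 609 with the inhibitors.

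FDPS, which makes farnesyl diphosphate, and FDFT1, the squalene synthase, fell in all 3 lines. FDPS went from 17972, 18482 and 18275 to 3872, 4074 and 3729 in 1205Lu and from 5728, 5834 and 5737 to 3651, 3861 and 3854 in A375. FDFT1 went from 9833, 10198 and 10808 to 2155, 1921 and 2060 in 1205Lu, from 11141, 10848 and 10368 to 2013, 1862 and 2185 in WM793 and from 4950, 4678 and 5200 to 2473, 2547 and 2712 in A375. In neither gene did treated and control libraries overlap. FDFT1 changed by -2.33 ± 0.17 (adjusted p = 7.82e-07), -2.42 ± 0.11 (adjusted p = 1.46e-08) and -0.94 ± 0.09 (adjusted p = 3.46e-06), and FDPS by -2.23, -2.09 and -0.61. GGPS1, which takes farnesyl diphosphate into a side branch for protein prenylation, was lower in WM793 (-0.49, adjusted p = 0.000814) and was at -0.10 and 0.30 in 1205Lu and A375. GGPS1 shares exonic sequence with ARID4B.

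SQLE had 5933, 5837 and 4380 in 1205Lu DMSO and 1082, 1186 and 1178 with the inhibitors. In WM793 it went from 6942, 4531 and 3992 to 961, 773 and 915, and in A375 from 989, 928 and 900 to 427, 471 and 541. Treated libraries lay below control libraries in each line, and the WM793 controls were the most spread. The changes were -2.21 ± 0.16 (adjusted p = 8.06e-07), -2.51 ± 0.18 (adjusted p = 2.89e-07) and -0.97 ± 0.19 (adjusted p = 0.00093). LSS, which closes the ring to lanosterol, fell by 1.19, 0.94 and 0.55, and CYP51A1, the lanosterol demethylase, fell by 1.79, 1.59 and 1.23, with exons that overlap AKAP9.

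Of the enzymes between lanosterol and cholesterol, EBP, HSD17B7 and DHCR7 fell in all 3 lines, as did STARD4, a carrier of sterols between membranes, while MSMO1, NSDHL and SC5D passed the test in 1205Lu and WM793 and TM7SF2 passed it in WM793. DHCR7 went from 10476, 9032 and 9244 to 1712, 1155 and 1594 in 1205Lu (-2.70 ± 0.18, adjusted p = 4.31e-07), from 6716, 5037 and 4591 to 744, 738 and 1140 in WM793 (-2.65 ± 0.22, adjusted p = 8.05e-07) and from 1734, 1455 and 1690 to 429, 394 and 489 in A375 (-1.89 ± 0.12, adjusted p = 7.13e-08). STARD4 went from 1742, 1623 and 1674 to 300, 312 and 224 in A375, a change of -2.60 ± 0.23 (adjusted p = 1e-06), and changed by -2.22 in 1205Lu and -2.19 in WM793. No treated library of either gene reached a control library. By contrast MSMO1 fell by 2.17 and 2.41 in 1205Lu and WM793 and was at -0.42 in A375 (adjusted p = 0.0549). NSDHL, a sterol dehydrogenase, fell by 1.48 and 1.90 and was at -0.01 in A375, where it had 683, 766 and 737 in DMSO and 731, 723 and 720 with the inhibitors. The A375 libraries of NSDHL overlapped fully.

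HSD17B7, a sterol ketoreductase, fell by 1.22, 1.31 and 0.48 and EBP, a sterol isomerase, fell by 2.03, 1.36 and 0.95. SC5D, a sterol desaturase, fell by 0.74 and 1.02 in 1205Lu and WM793 and was at 0.18 in A375. TM7SF2, a sterol reductase that overlaps VPS51, fell in WM793 (-0.78, adjusted p = 0.00242) and was at -1.23 in 1205Lu (adjusted p = 0.0523) and 0.45 in A375 (adjusted p = 0.252). Several of the smaller calls rested on single libraries. In A375, LSS lost its call without DMSO replicate 3 or BRAFi + MEKi replicate 1 or 2 (highest adjusted p = 0.102), and HSD17B7 lost it without any one of the 6 libraries compared (highest adjusted p = 0.178). SC5D lost its call in 1205Lu without DMSO replicate 1 (adjusted p = 0.0602) and in WM793 without BRAFi + MEKi replicate 2 or 3 (highest adjusted p = 0.0588).

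The lipid genes fell in A375 about as often as in WM793. With the inhibitors, 5 of 8 were lower in 1205Lu, 8 in WM793 and 7 in A375, with medians of -0.95, -1.47 and -1.62, and none was higher. The median lipid gene kept 52.0%, 36.2% and 33.3% of its DMSO level. FASN, the fatty acid synthase, had 19493, 28498 and 18740 in 1205Lu DMSO against 3534, 3868 and 3940 with the inhibitors. In WM793 it went from 41729, 38500 and 40807 to 2605, 4431 and 3956, and in A375 from 15158, 13012 and 16500 to 3338, 3463 and 3489. Every treated library was far below every control library, and with the inhibitors the 3 lines ended at similar values from unequal starts. The change was -2.53 ± 0.40 (adjusted p = 0.000375), -3.50 ± 0.25 (adjusted p = 3.09e-07) and -2.11 ± 0.15 (adjusted p = 2.02e-07).

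SCD, which makes monounsaturated fatty acids, had 54154, 63570 and 62964 in 1205Lu DMSO and 22653, 15189 and 17007 with the inhibitors. It went from 53514, 45707 and 42213 to 14660, 10759 and 13248 in WM793, and from 16185, 16306 and 20634 to 4929, 5029 and 5214 in A375. The controls and treated libraries were well separated in each line. The log2 fold changes of SCD were nearly equal in the 3 lines, at -1.74 ± 0.27 (adjusted p = 0.000289), -1.88 ± 0.18 (adjusted p = 2.51e-06) and -1.80 ± 0.14 (adjusted p = 4.16e-07). FADS1, a desaturase of polyunsaturated fatty acids, fell more in A375, from 10860, 10973 and 11390 to 2170, 2122 and 2394 (-2.31 ± 0.11, adjusted p = 9.42e-09), than in 1205Lu (-0.87) or WM793 (-0.73). The A375 libraries were close together within each group and far apart between groups. Exons of FADS1 overlap those of FADS2, the other desaturase, and of MIR1908, and exons of FADS2 also overlap those of FEN1. FADS2 was at -0.54 (adjusted p = 0.0645), -1.11 and -1.45.

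ACLY, which supplies acetyl-CoA from citrate, fell by 1.02, 1.63 and 0.54 log2 units, and its WM793 libraries went from 20324, 19626 and 18024 to 6325, 6084 and 6322. ACACA, the acetyl-CoA carboxylase, fell by 1.31 in WM793 and 0.84 in A375 and was at -0.46 in 1205Lu (adjusted p = 0.0694). ELOVL6, a fatty acid elongase, fell by 2.07, 2.10 and 1.79. LPIN1, a phosphatidate phosphatase of triglyceride synthesis, had 5008, 3332 and 4020 in 1205Lu DMSO and 2236, 2909 and 3326 with the inhibitors, a change of -0.54 ± 0.30 (adjusted p = 0.191). It went from 5093, 3923 and 4238 to 2396, 2888 and 2927 in WM793 (-0.69 ± 0.13, adjusted p = 0.00117) and from 1541, 1420 and 1630 to 1702, 1732 and 1482 in A375 (0.10 ± 0.11, adjusted p = 0.491). LPIN1 was thus clearly separated in WM793, separated by a narrow gap in 1205Lu and overlapping in A375.

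Of the 3 efflux genes, ABCA1 and MYLIP rose in 1205Lu and A375, whereas ABCG1 fell in A375. ABCA1, which exports cholesterol to lipoproteins, had 181, 233 and 370 in 1205Lu DMSO and 900, 915 and 1153 with the inhibitors. It had 262, 262 and 288 in WM793 DMSO against 378, 394 and 435, and 432, 466 and 611 in A375 DMSO against 864, 831 and 995. Treated libraries were higher without overlap in all 3 lines, as they were for 24.1%, 25.5% and 27.5% of all genes. The rise was 1.97 ± 0.26 in 1205Lu (adjusted p = 8.27e-05) and 0.85 ± 0.16 in A375 (adjusted p = 0.000723), while 0.57 ± 0.22 in WM793 did not pass the test (adjusted p = 0.0528). MYLIP, a ubiquitin ligase that sends lipoprotein receptors to degradation, went from 181, 250 and 210 to 422, 774 and 678 in 1205Lu (1.51 ± 0.27, adjusted p = 0.000872) and from 509, 486 and 601 to 755, 689 and 893 in A375 (0.55 ± 0.14, adjusted p = 0.00648). In WM793 MYLIP had 479, 787 and 680 in DMSO and 1199, 881 and 929 with the inhibitors, and its change of 0.64 had an adjusted p of 0.0546.

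ABCG1 moved the other way in A375, where it went from 122, 108 and 192 to 42.5, 41.3 and 92.2, a fall without overlap of 1.31 ± 0.34 log2 units (adjusted p = 0.00691). In 1205Lu it was under 10 in every library of both groups, at 7.97, 7.02 and 9.93 against 5.77, 2.85 and 5.12 (adjusted p = 0.344). So 2 efflux genes were higher in 1205Lu, none of the 2 tested in WM793 and 2 in A375, where the remaining one was lower.

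The regulators that are themselves SREBP targets fell with the synthesis genes. INSIG1 went from 10942, 9059 and 7730 to 2465, 1615 and 2002 in 1205Lu (-2.20 ± 0.23, adjusted p = 1.51e-05), from 14557, 9971 and 9690 to 1766, 2069 and 2224 in WM793 (-2.48 ± 0.26, adjusted p = 7.35e-06) and from 1128, 1216 and 1394 to 320, 357 and 246 in A375 (-2.02 ± 0.16, adjusted p = 5.28e-07). Controls and treated libraries were far apart in every line. SREBF2, which encodes SREBP2, went from 12353, 8789 and 12394 to 6055, 3757 and 4517 in 1205Lu (-1.24 ± 0.20, adjusted p = 0.000431), from 11822, 12598 and 11091 to 4787, 5129 and 6017 in WM793 (-1.16 ± 0.14, adjusted p = 1.99e-05) and from 6237, 6418 and 6030 to 1981, 2351 and 2033 in A375 (-1.56 ± 0.11, adjusted p = 1.26e-07). Its groups did not overlap either.

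SREBF1, which encodes SREBP1, went from 3094, 4305 and 4578 to 2695, 1879 and 1880 in 1205Lu, from 4530, 6233 and 5361 to 2184, 1825 and 1801 in WM793 and from 4577, 4884 and 5545 to 2801, 2681 and 2270 in A375. In 1205Lu replicate 1 of both groups came close to the other group. The changes were -0.89 ± 0.29 (adjusted p = 0.029), -1.47 ± 0.13 (adjusted p = 1.26e-06) and -0.95 ± 0.13 (adjusted p = 4.48e-05). The 1205Lu call was lost when replicate 2 or 3 of either group was left out, with a highest adjusted p of 0.101, and SREBF1 overlaps RAI1. SCAP changed by 0.43 (adjusted p = 0.0478), -0.22 and 0.05, with the 1205Lu call lost in 9 of 12 fits that left out 1 library (highest adjusted p = 0.155), and INSIG2 by -0.10, 0.14 and -0.46.

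**Figure D3:**
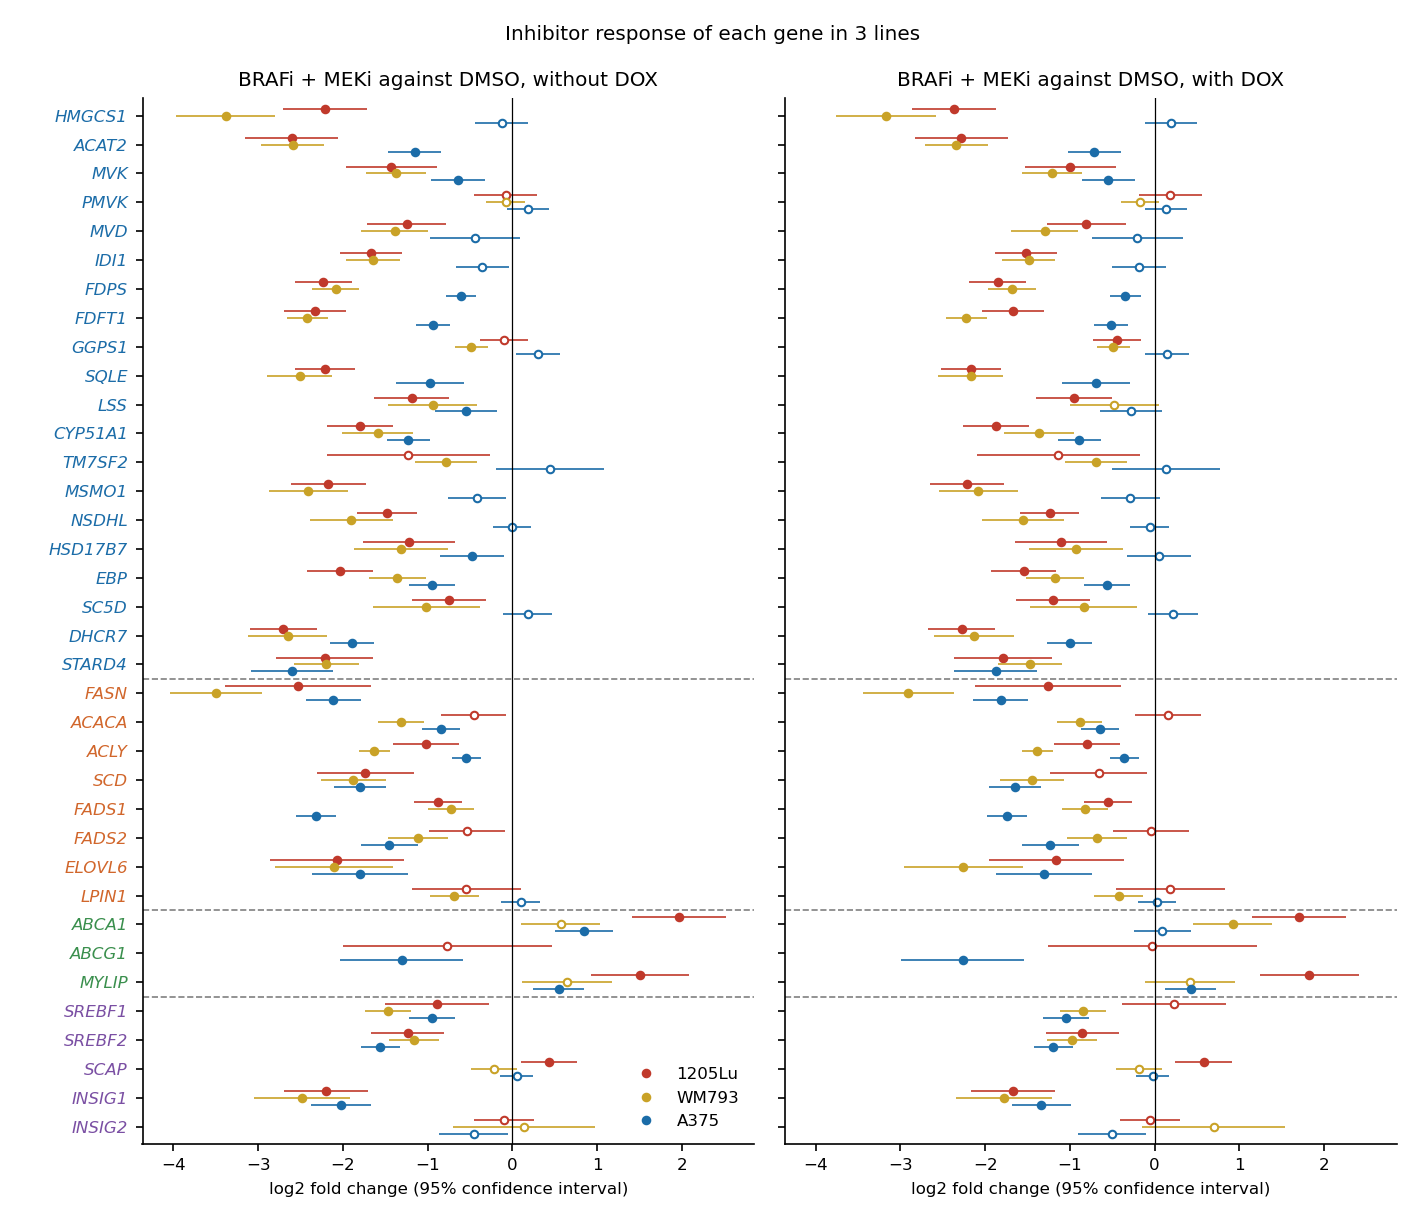
Log2 fold change with its 95% confidence interval (x axis) of each gene for BRAFi + MEKi against DMSO, without DOX and with DOX, in 1205Lu, WM793 and A375; filled points passed the test and dashed lines part sterol genes, lipid genes, efflux genes and regulators. For HMGCS1 the A375 point lies at -0.12 while 1205Lu and WM793 lie at -2.21 and -3.38, and for SCD the 3 points nearly coincide.

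Whether the lines differed in the size of the response was tested in one fit of all 36 libraries. Between 1205Lu and A375, 14 of the 36 genes differed. Among these were 11 of the 20 sterol genes, all with the more negative log2 fold change in 1205Lu. Of all genes, 14.7% were called in either direction, 6.65% in that direction and 8.08% in the other. Between WM793 and A375, 15 differed, 12 of them sterol genes with the more negative log2 fold change in WM793, against 22.8% and 10.1% of all genes. The median difference over the 20 sterol genes was -1.003 and -1.07 log2 units, while it was -0.11 and -0.39 over the 8 lipid genes and 0.03 over all genes in both comparisons. HMGCS1 differed by -2.09 ± 0.35 for 1205Lu (adjusted p = 0.000104) and -3.26 ± 0.35 for WM793 (adjusted p = 4.55e-08). FDPS differed by -1.62 and -1.48, FDFT1 by -1.39 and -1.48, MSMO1 by -1.75 and -1.99, NSDHL by -1.48 and -1.89 and IDI1 by -1.32 and -1.29.

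For other genes the difference to A375 was closer to 0 or of the opposite sign. DHCR7 differed by -0.81 (adjusted p = 0.0391) and -0.76 (adjusted p = 0.0402). STARD4 (0.39 and 0.41), SCD (0.06 and -0.08), SREBF2 (0.32 and 0.40) and INSIG1 (-0.17 and -0.45) did not pass the test in either comparison with A375. FADS1 differed in the other direction, since it fell less in 1205Lu by 1.44 ± 0.17 (adjusted p = 8.24e-07) and less in WM793 by 1.59 ± 0.17 (adjusted p = 4.31e-08). FASN (-1.38, adjusted p = 0.0305) and ACLY (-1.08, adjusted p = 1.62e-05) fell more in WM793 than in A375. The sums of the cell division genes under the inhibitors were 2730 to 5821 in A375, 5153 to 12596 in 1205Lu and 28561 to 34948 in WM793, and their part in these differences was not tested. Without the replicate numbers that stood apart, 23 of the 36 genes differed between 1205Lu and A375, against 20% of all genes in that fit. When 1 of the 24 libraries was left out, DHCR7 lost its call in 7 fits in each comparison with A375 (highest adjusted p = 0.131 and 0.211) and, against WM793, also with no filter, with array weights and without the replicate numbers that stood apart. Against WM793 the calls of MVD and FASN were lost in 8 and 5 fits (highest adjusted p = 0.188 and 0.0886). TM7SF2 lost its call against 1205Lu without replicate 2 of DMSO or BRAFi + MEKi in 1205Lu or replicate 1 of BRAFi + MEKi in A375 (highest adjusted p = 0.0661), SC5D lost it against WM793 without DMSO replicate 1 of WM793 (adjusted p = 0.0529), and ABCA1 lost it against 1205Lu without DMSO replicate 1 of 1205Lu (adjusted p = 0.0603).

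Between 1205Lu and WM793, 6 of the 36 genes differed, against 14.5% of all genes (6.52% with the higher and 7.94% with the lower value in 1205Lu). HMGCS1 (1.17, adjusted p = 0.0204), ACACA (0.86), ACLY (0.61) and SCAP (0.65) fell less or rose more in 1205Lu, EBP fell more (-0.68), and ABCA1 rose more (1.40, adjusted p = 0.0024). The median difference was -0.01 over the sterol genes and 0.36 over the lipid genes, with 0 over all genes. HMGCS1 and EBP lost their calls in 4 and 6 of 24 fits that left out 1 library (highest adjusted p = 0.0882 and 0.104).

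The inhibitor response was measured a second time in libraries that all received DOX, so that no library was shared with the first. In 1205Lu 24 of 36 genes were lower and 3 higher, in WM793 29 of 35 lower and 1 higher, and in A375 20 lower and 1 higher, with 28.2%, 31.7% and 31.0% of all genes called. Of the 28 genes called without DOX in 1205Lu, 26 were called with DOX in the same direction (92.9% of the first list and 96.3% of the second). The shared number was 29 in WM793 (96.7% of each list) and 21 in A375 (87.5% and 100%), and no gene was called in opposite directions. The shared part of the calls is not given for all genes, so this recurrence is not read as particular to the 36. Sterol medians were -1.53, -1.42 and -0.28 and lipid medians -0.60, -1.14 and -1.27, beside 0.12, 0.12 and 0.05 over all genes. Without BRAFi + MEKi + DOX replicate 1, the 1205Lu medians were -1.37 and -0.41, beside 0.08 over all genes, and 22 of the 36 genes were lower and 4 higher, against 28.6% of all genes called. FASN (-0.63, adjusted p = 0.0719) and ELOVL6 (-0.82, adjusted p = 0.118) were then no longer called, and LPIN1 was called higher (0.64 ± 0.19, adjusted p = 0.0251). The log2 fold change was further from 0 without DOX than with DOX for 28 of 36, 29 of 35 and 30 of 36 genes (77.8%, 82.9% and 83.3%), beside 52.7%, 58.7% and 62.6% of all genes tested. The difference between both responses itself, which is the same quantity as that between both DOX effects, passed the test for 0, 0 and 1 of these genes in 1205Lu, WM793 and A375.

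With DOX, HMGCS1 had 23862, 19369 and 19521 in 1205Lu without the inhibitors and 2957, 4375 and 5028 with them (-2.37), and in WM793 15501, 17956 and 14769 against 1091, 2270 and 2264 (-3.17). In A375 the values were 1187, 889 and 934 against 1009, 1038 and 1409, and the change was 0.19 (adjusted p = 0.342). HMGCS1 libraries were thus far apart in 1205Lu and WM793 and overlapped in A375. ACAT2 fell by 2.28, 2.34 and 0.71, DHCR7 fell by 2.28, 2.13 and 1.004, and MSMO1 fell by 2.22 and 2.08 in 1205Lu and WM793. In A375 STARD4 fell from 1351, 996 and 738 to 360, 261 and 212 (-1.88) and FADS1 fell by 1.74 ± 0.11 (adjusted p = 1.52e-07). FASN fell by 2.91 in WM793 and 1.82 in A375, and by 1.26 ± 0.40 (adjusted p = 0.0315) in 1205Lu, where its treated libraries ranged from 2744 to 11408. ELOVL6 fell by 2.26 in WM793. The 1205Lu call of FASN was lost when replicate 2 or 3 of DMSO + DOX, or replicate 1 of BRAFi + MEKi + DOX, was left out (highest adjusted p = 0.11).

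In 1205Lu, SCD (-0.66, adjusted p = 0.0816) and SREBF1 (0.23, adjusted p = 0.591) did not pass with DOX. Without BRAFi + MEKi + DOX replicate 1 they were at -0.28 (adjusted p = 0.275) and 0.60 (adjusted p = 0.0691). GGPS1 (-0.45, adjusted p = 0.0206) passed with DOX but not without; the differences between both responses are given below. ABCA1 rose by 1.71 ± 0.26 in 1205Lu (adjusted p = 0.00031) and 0.92 ± 0.22 in WM793 (adjusted p = 0.00484) and was at 0.09 in A375 (adjusted p = 0.713). The A375 ABCA1 libraries with DOX, 803, 706 and 703 in DMSO and 897, 818 and 654 with the inhibitors, overlapped. MYLIP rose by 1.83 ± 0.27 in 1205Lu (adjusted p = 0.000261) and 0.43 in A375 (adjusted p = 0.0328), where the call was lost without replicate 1 of either group, replicate 2 of DMSO + DOX or replicate 3 of BRAFi + MEKi + DOX (highest adjusted p = 0.124). GGPS1 lost its call without DMSO + DOX replicate 1 or without replicate 2 or 3 of BRAFi + MEKi + DOX (highest adjusted p = 0.0778). ABCG1 in A375 fell from 178, 217 and 270 to 45.5, 36.4 and 53.8, by 2.26 ± 0.34 log2 units (adjusted p = 0.00021), the lowest value of any member in that comparison.

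**Figure D4:**
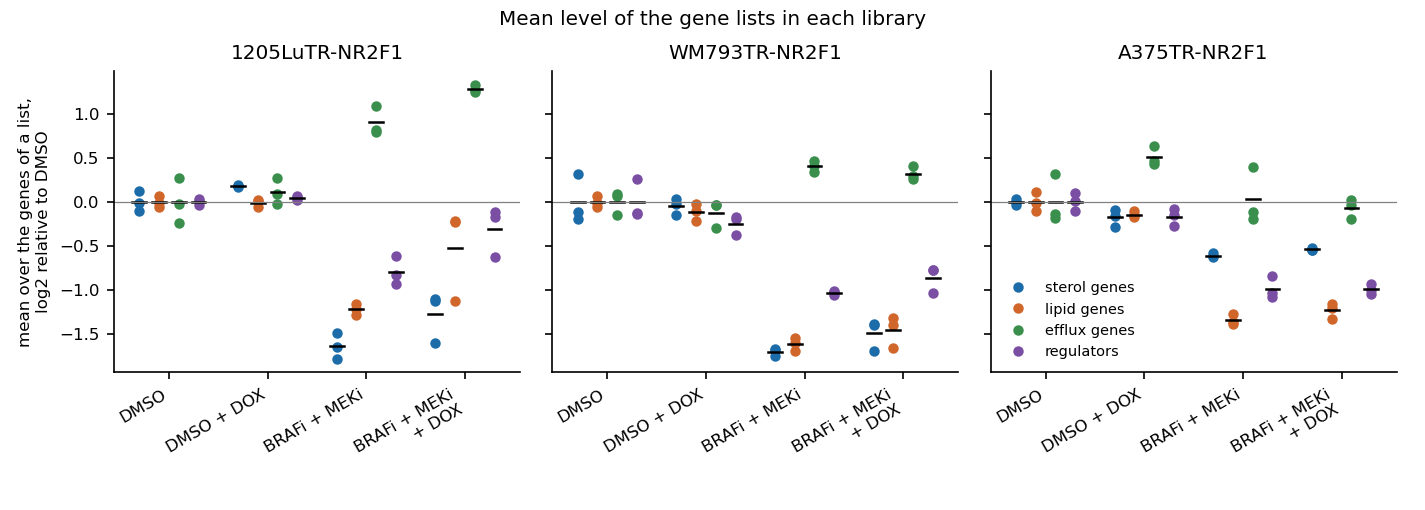
Mean over the genes of each list of log2(value + 1) in each library, relative to the mean of the DMSO libraries of the line (y axis), for the 4 treatments; points are libraries and bars group means. With BRAFi + MEKi and no DOX the sterol points lie below the lipid points in 1205Lu and above them in A375. With DOX as well they are still above in A375, and in 1205Lu each library has a lower sterol than lipid mean, but the 2 lists overlap between libraries; in 1205Lu BRAFi + MEKi + DOX replicate 1 lies below the other libraries for sterol genes, lipid genes and regulators.

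DOX was then compared with no DOX in cells under BRAFi + MEKi, a comparison that holds the effects of NR2F1 and of DOX itself together. In 1205Lu 34 of 36 log2 fold changes were above 0, with medians of 0.35 for sterol genes, 0.63 for lipid genes, 0.35 for efflux genes and 0.50 for regulators, beside -0.01 over all genes. These medians include BRAFi + MEKi + DOX replicate 1. Relative to DMSO, the mean log2 value of the sterol genes was -1.60 in it and -1.11 and -1.13 in replicates 2 and 3. For the lipid genes it was -1.13 in replicate 1 and -0.22 and -0.23 in the others. None of the 36 passed the adjusted threshold in 1205Lu, where 0.334% of all genes did, and 15 had an unadjusted limma p under 0.05. Here and below, no share of all genes is given at the unadjusted threshold, so these counts are not read as a result. SCD had 22653, 15189 and 17007 without DOX and 26186, 55633 and 59588 with it (1.30 ± 0.27, adjusted p = 0.0615). FDFT1 had 2155, 1921 and 2060 without DOX and 2662, 3832 and 4259 with it (0.78 ± 0.17, adjusted p = 0.0809). SREBF1 had 2695, 1879 and 1880 without DOX and 2667, 6018 and 5574 with it (1.08 ± 0.29, adjusted p = 0.15). In these 3 genes replicates 2 and 3 with DOX were well above all libraries without it, and replicate 1 was close to them.

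FASN showed the same split in 1205Lu, with 2744 in replicate 1 and 11408 and 9182 in replicates 2 and 3, against 3534 to 3940 without DOX. LPIN1 had 2558, 6574 and 6635 with DOX against 2236, 2909 and 3326, and INSIG1 had 2364, 3515 and 3863 against 2465, 1615 and 2002. Replicate 1 was inside or below the range without DOX for FASN, LPIN1 and INSIG1. Its NR2F1 value, 35187, was like the 35345 and 30839 of replicates 2 and 3, whereas DUSP6, an ERK target, was 74.6 against 617 and 710. The same was so without DOX, where DUSP6 was 75.8 in replicate 1 and 275 and 305 in the others. DUSP6 is 1 of 6 ERK genes and does not stand for the list. The 6 summed to 1402 to 2093 per library with DOX and to 1661 to 3735 without it. The part of these differences between libraries in the lipid values was not tested.

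Left without this one library, 11 of the 36 genes were higher with DOX in 1205Lu and none lower, against 3.32% of all genes called: ACAT2, IDI1, FDPS, FDFT1, DHCR7, FASN, ACACA, ACLY, SCD, LPIN1 and SREBF1. The log2 fold changes were then 1.68 for SCD, 1.45 for SREBF1, 1.44 for FASN, 1.24 for LPIN1 and 0.98 for FDFT1. Without replicate 1 of every 1205Lu group, 20 genes were called, 19 of them higher, against 6.47% of all genes; 10 sterol genes, 7 lipid genes and 3 regulators were called. Weighting libraries by their spread gave 18 genes, 17 of them higher, against 6.23%. A replicate block gave 2 genes, against 1.64%, and rescaled totals gave 2, against 0.295%.

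**Figure D5:**
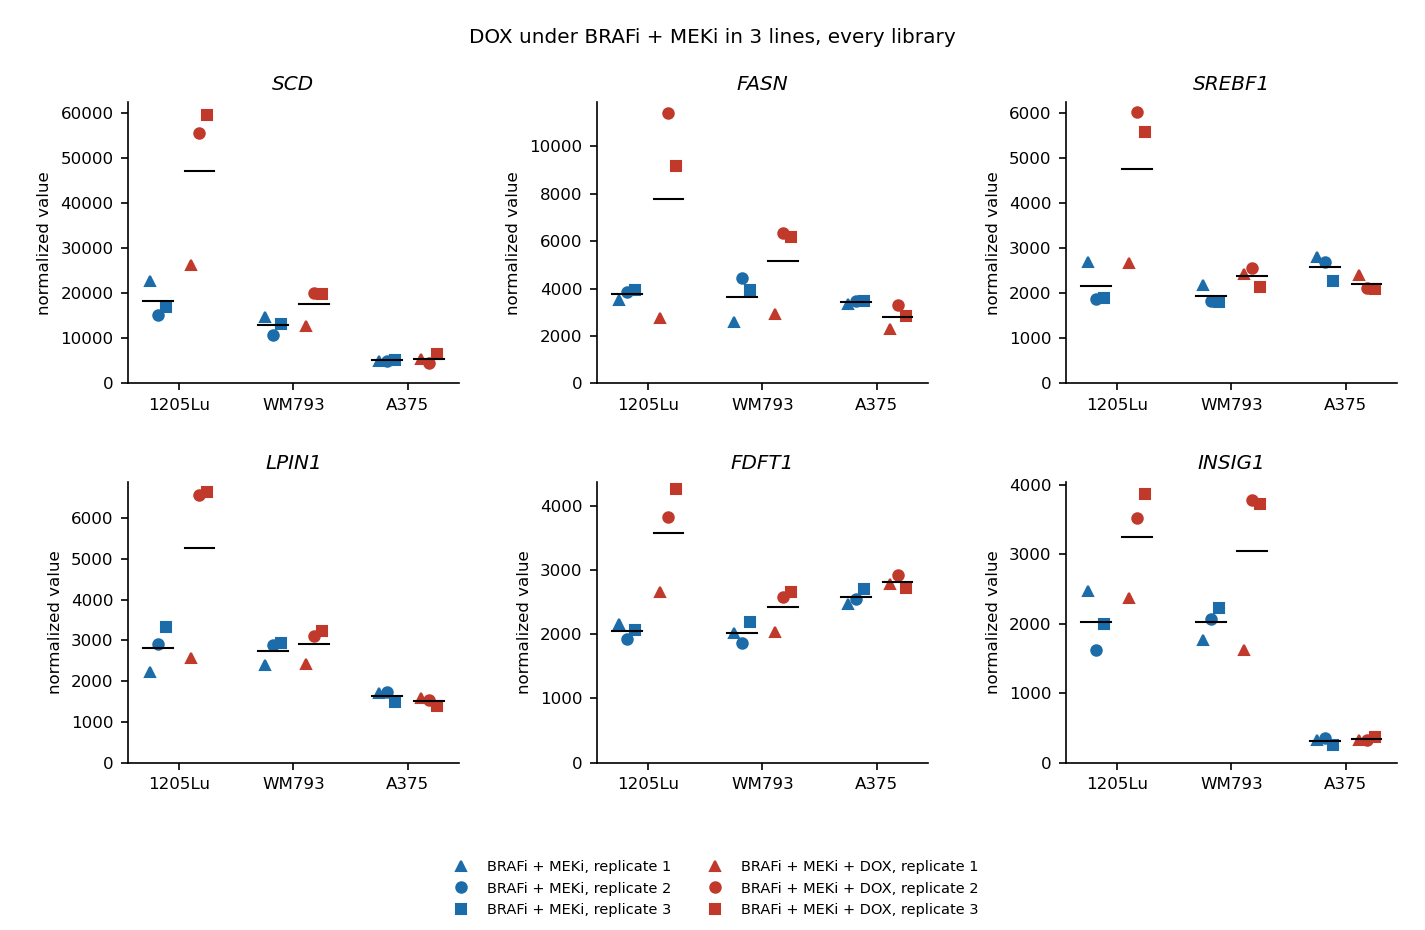
Normalized values (y axis) of SCD, FASN, SREBF1, LPIN1, FDFT1 and INSIG1 in each library with BRAFi + MEKi and with BRAFi + MEKi + DOX in the 3 lines; the marker shape is the replicate number and bars are means of 3 libraries. In 1205Lu replicates 2 and 3 with DOX lie high, for SCD at 55633 and 59588, and replicate 1 lies near the libraries without DOX.

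In WM793 and A375, 0 and 1 members passed the test for DOX under the inhibitors. In WM793 none of 35 genes was called, against 0.204% of all genes at the adjusted threshold. At an unadjusted limma p under 0.05 there were 5, with no share of all genes to set beside them. The medians were 0.23 for sterol and 0.17 for lipid genes. SCD had 12671, 20054 and 19803 with DOX against 14660, 10759 and 13248, and FASN 2929, 6334 and 6194 against 2605, 4431 and 3956. Replicate 1 again lay lower than the others with DOX for both genes. Without replicate 1 of every WM793 group, FASN, SCD and INSIG1 were called, against 0.563% of all genes in that fit. In A375, where 1.52% of all genes were called and 1.37% higher, FADS1 was the only one of the 36 called: it had 2170, 2122 and 2394 without DOX and 3085, 2890 and 3820 with it, without overlap, a rise of 0.54 ± 0.11 (adjusted p = 0.0215). That call was lost when replicate 1 or 2 without DOX, or replicate 1 or 3 with DOX, was left out (highest adjusted p = 0.132). DHCR7 had 429, 394 and 489 against 613, 580 and 682, also without overlap (0.52 ± 0.12, adjusted p = 0.0547). Libraries with DOX were higher without overlap for 8.28% of all genes in A375.

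Genes of cell division moved with DOX under the inhibitors too. Their sum rose from 2730 to 5821 without DOX to 10880 to 19185 with it in A375, where all 6 were called higher, and from 5153 to 12596 to 22167 to 23721 in 1205Lu, where 3 of 6 were called, while it was 28561 to 34948 and 25831 to 27092 in WM793. Their part in the lipid gene values was not tested. The DOX effect of FADS1 was lower in WM793 than in A375 (-0.67, adjusted p = 0.0481, against 0.881% of all genes called). That call was lost in 17 of 24 fits that left out 1 library (highest adjusted p = 0.19). The call was also lost with no filter, with rescaled totals and without the replicate numbers that stood apart. No other of the 36 passed in any of the 3 comparisons between lines. Of all genes, 0.138% were called for 1205Lu against WM793 and 0.179% for 1205Lu against A375. Without BRAFi + MEKi + DOX replicate 1 of 1205Lu, 5 and 7 of the 36 passed in these 2 comparisons. No share of all genes is given for those fits, so these counts are not read as a difference between lines. At an unadjusted limma p under 0.05 there were 7, 8 and 1 for 1205Lu against WM793, 1205Lu against A375 and WM793 against A375, again without such a share.

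Under DMSO, none of the 36 genes passed the adjusted threshold for DOX in any line, against 0.00903%, 0.512% and 0.0492% of all genes in 1205Lu, WM793 and A375. At an unadjusted limma p under 0.05 there were 2, 2 and 8, again without a share of all genes to compare. The log2 fold changes ran from -0.48 to 0.61 in 1205Lu, from -0.43 to 0.41 in WM793 and from -0.75 to 0.67 in A375. SQLE, for example, had 5933, 5837 and 4380 in 1205Lu DMSO and 7631, 5414 and 5877 in DMSO + DOX. The difference between the DOX effects under the inhibitors and under DMSO, which is also the difference between the inhibitor responses with and without DOX, passed in A375 for DHCR7 alone (0.89 ± 0.17, adjusted p = 0.0385, against 0.46% of all genes). This call was lost in 10 of 12 fits that left out 1 library and without the replicate number that stood apart (highest adjusted p = 0.143). Under DMSO, DHCR7 in A375 had 1734, 1455 and 1690 without DOX and 1225, 1219 and 1312 with it, and under the inhibitors its DOX effect of 0.52 did not pass. No member passed in 1205Lu or WM793, where no gene at all did, and 5 and 4 members had an unadjusted limma p under 0.05. Without replicate 1 of every 1205Lu group, 5 members passed there, against 0.982% of all genes in that fit, all with the higher DOX effect under the inhibitors: FDFT1, FASN, SCD, LPIN1 and SREBF1.

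Other genes of the same pathways were described from lists drawn up beside the 36. Of 9 further SREBP-related genes, 5 were lower and 2 higher with the inhibitors in 1205Lu, 5 lower and 1 higher in WM793 and 2 lower and 2 higher in A375, beside 14.4%, 16.9% and 19% of all genes lower and 16.5%, 20.4% and 20.5% higher in the 3 lines. ACSS2, which makes acetyl-CoA from acetate, fell by 1.38 and 1.64 in 1205Lu and WM793 and was at -0.33 in A375 (adjusted p = 0.105), and TMEM97 fell by 1.95, 1.21 and 0.89. Of 14 further genes of fatty acid synthesis and activation, 8, 5 and 7 were lower and 2, 7 and 2 higher in 1205Lu, WM793 and A375, with medians of -0.69, 0.41 and -0.42, to be read against the same shares of all genes. ACSL3, which activates long-chain fatty acids, fell by 1.90 in 1205Lu and WM793 and by 1.499 in A375, and GPAM, which starts triglyceride synthesis, rose by 1.10, 0.43 and 0.55.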

How the data were processed

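Gene expression was measured by RNA-Seq (TruSeq RNA Library Prep, which does not mark strand). The authors aligned reads with STAR to GRCh38, estimated gene counts with RSEM and normalized them with DESeq2, and the deposited signal is that normalized value per gene and library. The values were not whole, so no count test was run on them. From the deposited values, log2(value + 1) was tested with limma 3.58.1 (R 4.3.3, trend, Benjamini-Hochberg adjusted p under 0.05) in the 12 libraries of a line, and a gene was tested where any group mean of that line reached 1 (22144, 22074 and 24370 genes in 1205Lu, WM793 and A375). Responses were compared between lines in one fit of 36 libraries (26779 genes). Fold changes understate low genes on this scale. Values ± are SE. No replicate pair held the same values.

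Members and lists were chosen with earlier results of these data known. All 36 members are accounted for, and full statistics were given for a set of leading genes and for up to 4 genes in each direction with the largest change without overlap. Alternatives were another pseudocount (0.1), no filter, a filter at a mean of 30, a replicate block, rescaled totals, only the libraries compared and leaving out each library. Array weights, and leaving out the replicate number that stood apart, were chosen after seeing the data. Promoters were read with Python 3.11.15.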

Additional observations from a re-analysis of the deposited data

Results flagged for a closer look

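These values are differences between groups that passed the test of the difference itself (limma, Benjamini-Hochberg adjusted p under 0.05), in log2 units, for the inhibitor response without DOX unless stated. For 1205Lu minus WM793 they were HMGCS1 1.17, EBP -0.68, ACACA 0.86, ACLY 0.61, ABCA1 1.40 and SCAP 0.65. For 1205Lu minus A375 the sterol genes were HMGCS1 -2.09, ACAT2 -1.45, IDI1 -1.32, FDPS -1.62, FDFT1 -1.39, SQLE -1.24, TM7SF2 -1.67, MSMO1 -1.75, NSDHL -1.48, EBP -1.08 and DHCR7 -0.81, and the others were FADS1 1.44, FADS2 0.91 and ABCA1 1.13. For WM793 minus A375 the sterol genes were HMGCS1 -3.26, ACAT2 -1.44, MVD -0.95, IDI1 -1.29, FDPS -1.48, FDFT1 -1.48, GGPS1 -0.79, SQLE -1.53, MSMO1 -1.99, NSDHL -1.89, SC5D -1.19 and DHCR7 -0.76, and the lipid genes were FASN -1.38, ACLY -1.08 and FADS1 1.59. The DOX effect of FADS1 under the inhibitors was 0.67 log2 units lower in WM793 than in A375 (-0.67), and in A375 the DOX effect of DHCR7 was 0.89 higher under the inhibitors than under DMSO. The first of these calls was lost in 17 of 24 and the second in 10 of 12 fits that left out 1 library (highest adjusted p = 0.19 and 0.143). These lines also differ in medium, and line and medium cannot be told apart.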

How the results depend on the processing

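No value that passed the test changed its direction in any alternative. With rescaled totals some values that had not passed changed sign and still did not pass: for the inhibitor response without DOX these were PMVK in WM793 (-0.08 to 0.13) and HMGCS1 (-0.12 to 0.03) and NSDHL (-0.01 to 0.15) in A375. The number of the 36 genes called for the inhibitor response stayed between 23 and 32 without DOX and between 19 and 32 with DOX in the settings other than leave-one-out; with 1 library left out at a time it ran from 26 to 32, 29 to 32 and 22 to 27 without DOX and from 24 to 27, 27 to 31 and 19 to 22 with DOX in 1205Lu, WM793 and A375. Of 266 calls, 42 were lost in at least 1 setting. Between lines, leave-one-out gave 12 to 18 (1205Lu against A375), 4 to 7 (1205Lu against WM793) and 12 to 16 (WM793 against A375) for the inhibitor response and 26 to 28, 9 to 12 and 25 to 29 for DMSO levels; without the replicate numbers that stood apart, 1205Lu against A375 gave 23. The DOX effect under BRAFi + MEKi depended on the setting. In 1205Lu the count of 0 became 2 with a replicate block, 2 with rescaled totals, 18 with array weights, 20 without the replicate numbers that stood apart and 0 to 11 with 1 library left out. Of all genes, 1.64% were called with the block, 0.295% with rescaled totals, 6.23% with array weights and 6.47% without those replicates. In WM793 it became 3 with array weights and 3 without those replicates (0 to 0 left out), beside 2.17% and 0.563% of all genes. In A375 the count of 1 became 2 with a filter at 30, with the replicate block and with array weights, 0 with only the libraries compared, and 0 to 2 left out. There 2.47% of all genes were called with the block and 4.25% with array weights. Under DMSO, array weights called 1 gene in WM793 (SREBF1), leaving out the replicates that stood apart called 1 in A375 (ABCA1), and leave-one-out called 0. The difference between both DOX effects gave 1 with array weights and 5 without those replicates in 1205Lu and 0 without them in A375, with 0 to 2, 0 to 0 and 0 to 1 left out. For DOX between lines, 1205Lu against WM793 gave 6 with array weights, 7 without those replicates and 0 to 5 left out. For 1205Lu against A375 the counts were 1 with the block, 1 with rescaled totals, 9 with weights, 12 without those replicates and 0 to 7 left out, and for WM793 against A375 they were 0 with no filter, 0 with rescaled totals, 4 without those replicates and 0 to 1 left out. No share of all genes is given for these settings between lines, so their counts cannot be set beside one. The cause of the changes in count was not tested. Libraries with the same replicate number correlated at 0.0037 to 0.274, with 15 of 36 pairs over 0.1 and no label that ties a number to an experiment, so the numbers were not taken as pairing, although in 30 of 36 cases a library correlated best with the one of its own number, a hint from the data. Rescaling moved the median of all genes by 0.20 and 0.17 in WM793 and 0.15 and 0.13 in A375 without and with DOX, by 0.10 in 1205Lu with DOX, by -0.14 for the inhibitor response of 1205Lu against WM793 and by -0.12 and -0.15 for DMSO levels of 1205Lu and WM793 against A375. With 3 libraries a group small differences may be missed, and values as low as those of ABCG1 in 1205Lu (2.85 to 12.4) leave little depth.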

Other observations

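Genes that handle sterols or burn fatty acids were listed beside the 36 and are given for BRAFi + MEKi without DOX (limma, adjusted p under 0.05). As lists they moved in no single direction, and the counts lie near or under the share of all genes called in some lines. CYP27A1, which makes an oxidized sterol that activates LXR, rose by 1.42 ± 0.18 log2 units in 1205Lu, 2.96 ± 0.32 in WM793 and 0.79 ± 0.21 in A375. Of 8, 9 and 7 further LXR and sterol handling genes tested, 1, 4 and 1 rose and 0, 1 and 3 fell in the 3 lines, beside 30.9%, 37.3% and 39.5% of all genes called in either direction. CH25H, another enzyme that oxidizes cholesterol, rose by 3.14 ± 0.38 in WM793 and was listed at 0 in every library of 1205Lu and A375. NR1H3, which encodes an LXR, fell in A375 (-1.14) and was at 0.31 and -0.61 in 1205Lu and WM793 without passing the test. SCARB1, a receptor for high-density lipoprotein, fell in WM793 (-0.63) and A375 (-0.79).

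Of 10 fatty acid oxidation genes, 3, 4 and 4 rose and 1, 2 and 2 fell in 1205Lu, WM793 and A375, beside the same shares of all genes. CPT1A, which brings fatty acids into mitochondria, rose by 0.84 ± 0.15, 1.19 ± 0.23 and 0.75 ± 0.12, while HADHA, of the oxidation spiral, fell by 0.60, 0.99 and 0.41. PDK4, which slows pyruvate oxidation, rose in WM793 (2.87) and fell in A375 (-0.57). PCYT2, of phosphatidylethanolamine synthesis, fell in 1205Lu (-1.48) and WM793 (-1.12) and rose in A375 (1.02).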
